A study of Homo sapiens with 12 samples.

Results

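The miR-371 to miR-373 cluster is a short run of miRNA genes on chromosome 19 that is best known from human pluripotent stem cells and germ cell tumours. Its members were taken as every mature arm of hsa-miR-371a, hsa-miR-371b, hsa-miR-372 and hsa-miR-373 listed in the miRNA count table of extracellular vesicles (EV). The table lists 7 of the 8 arms, among 1133 miRNA in all, and miR-371b-3p was not analysed here. Small RNA was sequenced from EV that the human induced pluripotent stem cell (hiPSC) line iPS(IMR90)-4 released along its differentiation into cardiomyocytes. The 12 libraries form 4 EV groups of 3 EV preparations each, from independent cultures within a group. hiPSC-EV came from undifferentiated cells at day 0, in expansion medium conditioned for 24 h. CPC-EV came from cardiac progenitors at day 6, in differentiation medium conditioned for 72 h. CMi-EV came from immature cardiomyocytes at day 15 and CMm-EV from more mature cardiomyocytes at day 35, both kept as 3D aggregates with 48 h of conditioning. CMi-EV were collected in maintenance medium, and CMm-EV in a maturation medium with galactose and fatty acids in place of glucose. All groups thus derive from 1 cell line, and stage, medium, culture format and conditioning time change together and cannot be told apart. EV were separated on density gradients, so a level describes a preparation: fewer vesicles that carry a miRNA and fewer copies per vesicle cannot be told apart either.

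A miRNA gene is transcribed into a hairpin, from which the 5p and 3p arms are cut, and 1 arm usually becomes the stable mature miRNA. Bases 2 to 8 of the mature miRNA, the seed, pair with target messenger RNA and largely decide which messages are repressed. miR-372-3p and miR-373-3p carry the seed of the miR-302 family, the most abundant miRNA family of human pluripotent cells, which is known to favour cell cycle progression and reprogramming. miR-371a-3p is followed in blood as a marker of germ cell tumours.

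The 8 mature sequences of the cluster are shown because arms of the same hairpins differ in their seed and, below, in their abundance. They are those of RefSeq on GRCh38.p14, 5′ to 3′, with the seed in capitals.
hsa-miR-371a-5p: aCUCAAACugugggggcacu
hsa-miR-371a-3p: aAGUGCCGccaucuuuugagugu
hsa-miR-371b-5p: aCUCAAAAgauggcggcacuuu
hsa-miR-371b-3p: aAGUGCCCccacaguuugagugc
hsa-miR-372-5p: cCUCAAAUguggagcacuauucu
hsa-miR-372-3p: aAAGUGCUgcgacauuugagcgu
hsa-miR-373-5p: aCUCAAAAugggggcgcuuucc
hsa-miR-373-3p: gAAGUGCUucgauuuuggggugu
hsa-miR-302b-3p: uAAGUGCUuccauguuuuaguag
The last sequence, from chromosome 4, is given for comparison. miR-372-3p and miR-373-3p have the seed AAGUGCU, which 12 mature miRNA in the RefSeq table hold, namely those 2, the 3p arms of miR-302a to miR-302d, miR-302e and the 3p arms of miR-520a to miR-520e. The longest run of bases that miR-372-3p shares with miR-373-3p, or with miR-302b-3p, is 7 nt, the length of the seed. The seed of miR-371a-5p, CUCAAAC, was found in no other mature miRNA of that table, and neither was that of miR-371a-3p. miR-371b-5p and miR-373-5p share the seed CUCAAAA with miR-616-5p. The cluster therefore holds several seeds, and its members are not interchangeable at this level.

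The hairpins lie within 1099 nt of each other. MIR371A is at chr19:53787675-53787741, MIR372 at chr19:53787890-53787956 and MIR373 at chr19:53788705-53788773, all on the + strand. MIR371B occupies chr19:53787677-53787742 on the - strand, so it is the antisense of MIR371A. In GENCODE v44, MIR371A and MIR372 are in the intron and MIR373 is in an exon of the long noncoding RNA gene ENSG00000269564 (+ strand). On the other strand, an exon of the long noncoding RNA gene ENSG00000269877 covers MIR371B and also the position of MIR372. The nearest hairpin upstream is MIR519A2, the end of the large chromosome 19 miRNA cluster (C19MC), 25.2 kb away, and the nearest protein-coding gene downstream is NLRP12, 4.97 kb away. The hairpin of MIR371A is shown with both arms in capitals, since its first arm gave 80.3% of all counts of the cluster over the 12 libraries (21849 of 27208).
MIR371A: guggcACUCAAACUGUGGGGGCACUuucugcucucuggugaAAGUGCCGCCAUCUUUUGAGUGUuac
miR-371b-5p is the reverse complement of miR-371a-3p over 21 nt, and miR-371b-3p that of miR-371a-5p over 20 nt. How the counting treated strand is not given in the sources used here, so counts of these pairs could be divided between them. Transcripts of the 4 hairpins and of the 2 long noncoding RNA genes were not analysed here.

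**Figure D1:**
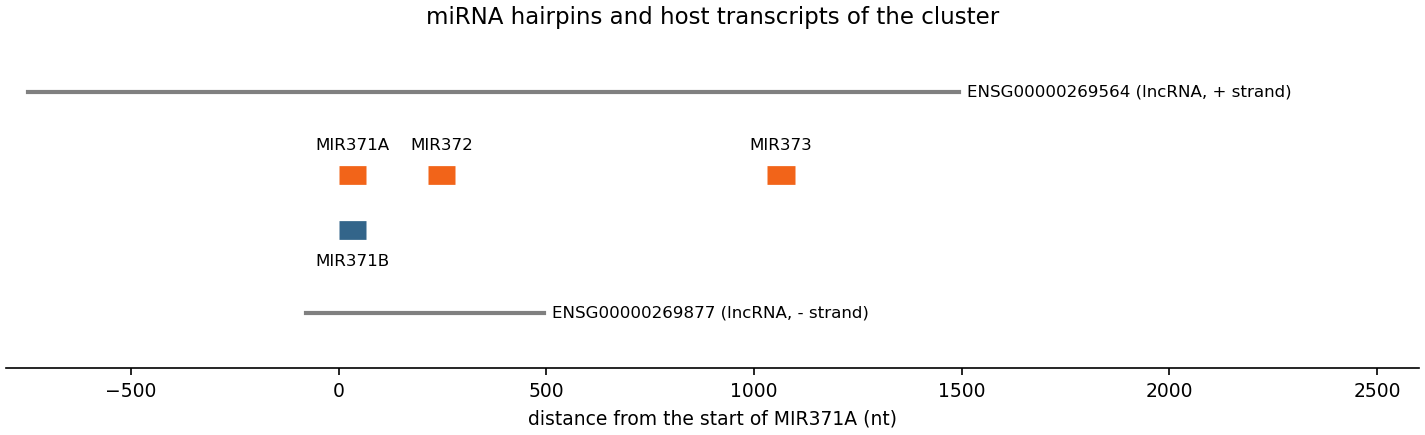
Map of the cluster to scale, with the distance from the start of MIR371A in nt on the x axis. Hairpins on the + strand are orange, MIR371B on the - strand is blue, and grey lines span the 2 long noncoding RNA genes; the 4 hairpins lie within 1099 nt.

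The total of miRNA counts differed widely, from 703415 (hiPSC-EV 1) to 6272455 (CMm-EV 2), and the median library had 2511807 among hiPSC-EV, 1680153 among CPC-EV, 1686607 among CMi-EV and 5072948 among CMm-EV. Where no count was found, a level of up to 3 counts remains possible, equal to 0.640 CPM at best (hiPSC-EV 3) and 3.64 CPM at worst (CMm-EV 1). Such limits and all intervals below cover counting error only, since reads without molecular identifiers are not independent molecules. Levels are CPM, the counts of a miRNA after each library is brought to the same total of miRNA counts, further scaled by TMM (trimmed mean of M-values) over all 12 libraries. A mature miRNA gives 1 read whatever its length, so counts were not divided by length. How well each miRNA is captured in a library depends on its sequence and was not measured, which limits comparisons between miRNA.

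Stage markers moved along the libraries, and their part in the results was not tested. The summed level of the 3p arms of miR-302a to miR-302d and miR-367 (5 of 5 listed) ran from 171853 to 210161 CPM in hiPSC-EV and from 48452 to 78319 in CPC-EV. It was at most 6696 CPM in CMi-EV and at most 302.4 CPM in CMm-EV. NANOG, a transcription factor of pluripotency, had 16, 16 and 10 counts in hiPSC-EV and none in CPC-EV or CMi-EV, and 0, 16 and 1 in CMm-EV. POU5F1, another, had 111, 153 and 164 counts in hiPSC-EV and 57, 1 and 0 in CPC-EV, and L1TD1 had 14, 108 and 148 in hiPSC-EV and 0, 1 and 0 in CPC-EV. LIN28A, which blocks let-7 maturation, had 69, 131 and 324 counts in hiPSC-EV and 98, 432 and 405 in CPC-EV. The sums over all 8 pluripotency transcripts overlapped between hiPSC-EV (427 to 781 CPM of transcript counts) and CPC-EV (330 to 616), where LIN28A had most of the counts in CPC-EV 2 and CPC-EV 3 but not in CPC-EV 1. The 5 cardiomyocyte miRNA summed to between 44.1 and 68.0 CPM in hiPSC-EV, between 756 and 1519 in CPC-EV and at least 20749 in each CMi-EV and CMm-EV library. Of 6 cardiac progenitor transcripts, 4 are listed. ISL1 and NKX2-5 were not analysed here, and the sums of the listed ones ran from 0 to 3.25 CPM in hiPSC-EV, from 34.1 to 201 in CPC-EV, from 33.7 to 201 in CMi-EV and from 0 to 30.6 in CMm-EV. The 6 cardiomyocyte transcripts summed to between 17.8 and 88.9 CPM in hiPSC-EV and to at least 1398 in every later library. miRNA of endoderm and liver (4 of 4 listed) summed to between 1302 and 2251 CPM in hiPSC-EV and between 6304 and 8865 in CPC-EV, while those of blood and serum (4 of 5 listed) went from between 5307 and 8684 to between 857 and 1152. Nearly all counts of the blood and serum list were those of miR-486-5p, while miR-451a, the most abundant miRNA of red blood cells, had 0, 11 and 24 counts in hiPSC-EV and 107, 122 and 0 in CPC-EV.

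miR-371a-5p carried most of the cluster. Its counts in hiPSC-EV 1, 2 and 3 were 583, 2793 and 7354, in CPC-EV 2727, 5048 and 2761, in CMi-EV 275, 197 and 109, and in CMm-EV 2, 0 and 0. It made up 82.7% ± 6.14 (SD, n = 3) of all counts of the cluster in hiPSC-EV and 78.4% ± 8.24 in CPC-EV. By count it ranked between 57 and 69 among the miRNA of the hiPSC-EV libraries and between 46 and 50 in CPC-EV. In CMi-EV it ranked between 135 and 164.

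miR-372-3p came next, with 187, 331 and 859 counts in hiPSC-EV and 569, 1819 and 284 in CPC-EV. In CMi-EV, all of its counts came from 1 library, with 0, 34 and 0. No CMm-EV library had a count of it.

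miR-373-3p had 0, 58 and 218 counts in hiPSC-EV, 45, 139 and 176 in CPC-EV, and 0, 25 and 0 in CMi-EV. Like miR-372-3p it was detected in CMi-EV 2 alone among the CMi-EV libraries, and it had no count in CMm-EV. The only hiPSC-EV library without it was hiPSC-EV 1, the library with the fewest miRNA counts. There 3 counts would be 3.48 CPM, while hiPSC-EV 2 and hiPSC-EV 3 had 23.1 and 46.5 CPM. The part of depth in this was not tested.

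The other 4 arms were rare and came and went between libraries of the same group. hsa-miR-371a-3p had counts in hiPSC-EV 3 (89), CPC-EV 1 (32), CPC-EV 2 (102) and CMi-EV 2 (57). miR-371b-5p had counts in hiPSC-EV 2 (20), hiPSC-EV 3 (86) and CPC-EV 2 (114). Counts of miR-372-5p were limited to hiPSC-EV 3 (17) and CPC-EV 1 (41), and those of miR-373-5p to hiPSC-EV 3 (10), CPC-EV 2 (46) and CMm-EV 1 (1). These 4 arms did not reach 5 CPM in all libraries of any group and were not tested, so tests cover 3 of the 7 members at most. Between 2 and 7 members had a count in a hiPSC-EV library, between 3 and 6 in CPC-EV, between 1 and 4 in CMi-EV and at most 2 in CMm-EV. With all 7 in hiPSC-EV 3, the deepest library of its group, and 2 in hiPSC-EV 1, the number detected moved with depth there, and its part in the differences of the rare arms was not tested.

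**Figure D2:**
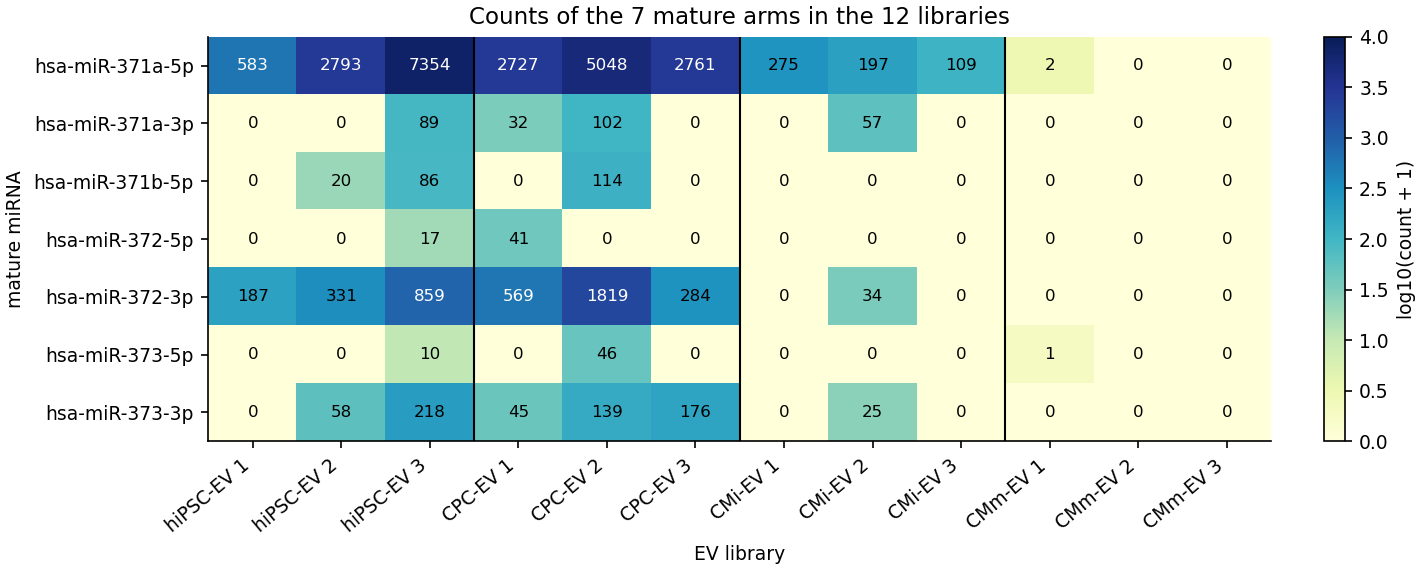
Counts of the 7 mature arms (rows) in the 12 EV libraries (columns), printed in each cell and coloured by log10(count + 1); vertical lines separate the EV groups. miR-371a-5p and miR-372-3p were counted in all 6 hiPSC-EV and CPC-EV libraries, and the CMm-EV libraries held 3 counts of the cluster in all.

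The first question was whether the cluster stays until CPC-EV. All 3 tested members were there at levels that overlapped with those of hiPSC-EV. miR-371a-5p stood at 677, 1110 and 1568 CPM in hiPSC-EV and at 1046, 1252 and 1026 CPM in CPC-EV, with means of 1118 ± 445 and 1108 ± 125 (SD, n = 3). The CPC-EV libraries lay inside the range of the hiPSC-EV libraries. Scaled within these 6 libraries alone, its log2 fold change was 0.42 (SE 0.28) and was not called, with an adjusted p of 0.316 in the quasi-likelihood test of edgeR.

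miR-372-3p stood at 217, 132 and 183 CPM in hiPSC-EV and at 218, 451 and 106 CPM in CPC-EV. The CPC-EV libraries spanned a wider range than the hiPSC-EV libraries and enclosed it. Its log2 fold change was 0.89 (SE 0.52, adjusted p = 0.267, edgeR). miR-373-3p stood at 0, 23.1 and 46.5 CPM in hiPSC-EV and at 17.3, 34.5 and 65.4 CPM in CPC-EV, with a log2 fold change of 1.23 (SE 1.35, adjusted p = 0.573, edgeR).

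Thus 0 of 3 tested members were called between CPC-EV and hiPSC-EV, where 27.5% of the 338 miRNA tested were called in either direction. No member had an unadjusted p under 0.05, and the exact test of edgeR and DESeq2 called 0 of 3 as well. To be called, a miRNA had to reach an adjusted p of 0.05 and a 2-fold difference, that is 1 on the log2 scale. After TMM scaling, no tested member had every CPC-EV library above every hiPSC-EV library, as 16.0% of the miRNA tested did. Without it, miR-371a-5p did, at 829, 1112 and 1314 unscaled CPM in hiPSC-EV against 1623, 1493 and 1794 in CPC-EV, as did 23.1% of the miRNA tested, and the other two tested members overlapped. The SE are wide, so this does not show that the levels are equal. The median log2 fold change of all 338 miRNA tested was -0.27, which places miR-371a-5p 0.69, miR-372-3p 1.16 and miR-373-3p 1.51 above that median on the log2 scale. These distances moved with the filter and with single libraries: with no filter they were 1.82, 2.38 and 2.53, that of miR-372-3p was 0.53 without CPC-EV 2, and that of miR-373-3p was 0.58 without CPC-EV 3 and 2.48 without hiPSC-EV 3. With no count in hiPSC-EV 1, miR-373-3p passed the filter through CPC-EV alone, so its distance above the median was in part built in. Without scaling, as a share of all miRNA counts, the cluster held 0.130% ± 0.0225 (SD, n = 3) in hiPSC-EV and 0.209% ± 0.00590 in CPC-EV, and the 2 ranges did not overlap (0.109% to 0.154% against 0.203% to 0.215%). As a share of the library total they did overlap, since hiPSC-EV 3, at 0.0900%, was above CPC-EV 1 (0.0877%) and CPC-EV 3 (0.0874%), and as a share of the counts on 5 RNA classes they did not (up to 0.0987% in hiPSC-EV, from 0.105% in CPC-EV). The TMM factors of the CPC-EV libraries, 1.19 to 1.75 against 0.838 to 1.22 in hiPSC-EV, divide the difference in the share of miRNA counts out, and whether it lies in the cluster or in the rest of the library cannot be told apart from these ratios.

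**Figure D3:**
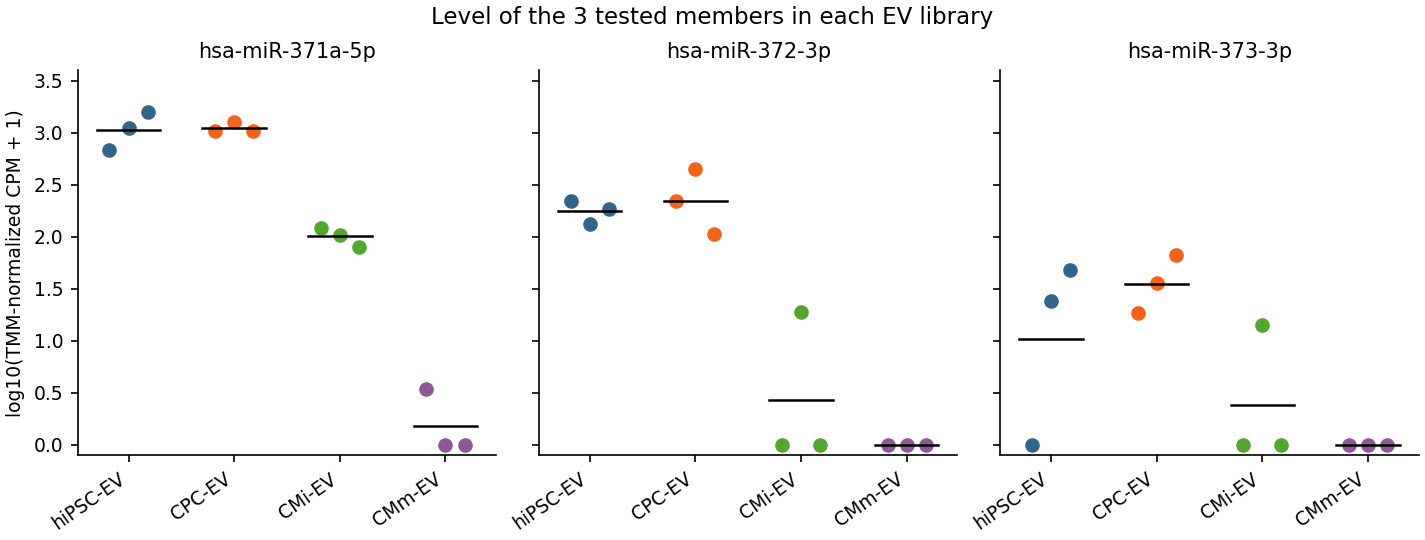
Levels of miR-371a-5p, miR-372-3p and miR-373-3p as log10(TMM-normalized CPM + 1) on the y axis, with 1 point per library (replicates 1 to 3 from left to right) and a bar at the mean of each EV group. hiPSC-EV and CPC-EV overlapped for each of them, and all CMi-EV and CMm-EV libraries lay below all CPC-EV libraries.

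The other miRNA clusters of pluripotent cells gave different values in the same comparison. Of all 338 miRNA tested, 16.0% were called lower in CPC-EV. Arms that passed the filter through hiPSC-EV alone could hardly be other than lower, so the counts are a description. Of the 10 arms of miR-302a to miR-302d and miR-367, 9 were tested, 3 were called lower in CPC-EV and 0 higher, with a median log2 fold change of -0.59. miR-302b-3p, the most abundant 3p arm of that list, went from 178903 to 62511 CPM and fell by 1.11 on the log2 scale (SE 0.18, adjusted p = 0.00463, edgeR). Its sister miR-302a-5p was at 133927 and 125796 CPM, with a log2 fold change of 0.29 (SE 0.40, adjusted p = 0.662, edgeR). C19MC is the neighbour of the miR-371 to miR-373 cluster on chromosome 19. Of its 40 arms that were counted singly, 9 were tested, 5 were called lower and 0 higher, with a median of -3.99. miR-1323, the most abundant of them, went from 1919 to 233 CPM, with a log2 fold change of -2.67 (SE 0.33, adjusted p = 0.00156, edgeR), and miR-512-3p went from 303 to 14.2 CPM (log2 fold change -3.99, SE 1.11, adjusted p = 0.0465, edgeR). miR-517a-3p and miR-517b-3p, counted together and so outside these 40 arms, had a log2 fold change of -1.89 (SE 1.83, adjusted p = 0.531, edgeR). The median of the 3 tested members was 0.89 and no member was below 0.42. Of these, miR-373-3p passed the filter through CPC-EV alone, which favours a value above 0, so this too is a description. The difference between these lists was not tested.

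The 12 miRNA with the seed AAGUGCU are a list that holds miR-372-3p and miR-373-3p themselves. The table lists 11 of them, of which 8 were tested, 3 were called lower in CPC-EV and 0 higher, with a median log2 fold change of -0.62. miR-302c-3p, the most abundant after miR-302b-3p, was called lower, with a log2 fold change of -1.20 (SE 0.27, adjusted p = 0.0130, edgeR). Together miR-372-3p and miR-373-3p made up 0.107% ± 0.0198 (SD, n = 3) of the counts with that seed in hiPSC-EV and 0.434% ± 0.159 in CPC-EV. The highest hiPSC-EV library had 0.126% (95% exact binomial interval 0.109% to 0.146%) and the lowest CPC-EV library 0.333% (0.308% to 0.361%). In every library where they were counted, more than 99% of the counts with that seed thus belonged to other miRNA, above all to miR-302b-3p. miR-302b-3p was called lower in CPC-EV, and neither miR-372-3p nor miR-373-3p was called. The higher share in CPC-EV thus does not show a gain of miR-372-3p and miR-373-3p. In CMi-EV 2 their share was 0.462% (0.352% to 0.595%), while CMi-EV 1 and CMi-EV 3 had no count of them, which allows shares of up to 0.0243% and 0.0543% at 3 counts.

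A ratio between miRNA of the same library does not depend on scaling. For every 100 counts of miR-302b-3p, miR-371a-5p had 0.407, 0.648 and 0.787 counts in hiPSC-EV and 1.55, 1.70 and 2.22 in CPC-EV. All CPC-EV libraries were above all hiPSC-EV libraries, and the 95% intervals of the nearest ones, which end at 0.805 and begin at 1.49, were apart. The means were 0.614 ± 0.192 and 1.82 ± 0.350 (SD, n = 3), and the difference of 1.21 had p = 0.10 in a two-sided exact permutation test over 20 assignments, the smallest p that 3 against 3 libraries allow. miR-302b-3p was itself called lower in CPC-EV (log2 fold change -1.11), where the median of all miRNA tested was -0.27. A miRNA at that median would thus rise against it too. How many of the miRNA tested separated in this ratio was not counted, so the separation is a description. It also depended on the arm chosen. For every 100 counts of miR-302a-5p, miR-371a-5p had 0.666, 0.832 and 0.941 counts in hiPSC-EV and 1.05, 0.565 and 1.83 in CPC-EV, so that the groups overlapped (means 0.813 ± 0.139 and 1.15 ± 0.636, two-sided exact permutation test, p = 0.50). In CMi-EV the ratio to miR-302b-3p was 2.44, 1.65 and 2.15, within the range of CPC-EV or just above it, with a mean of 2.08 ± 0.402 (exact permutation test against CPC-EV, two-sided, p = 0.50). Both ratios were added after the data had been seen.

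**Figure D4:**
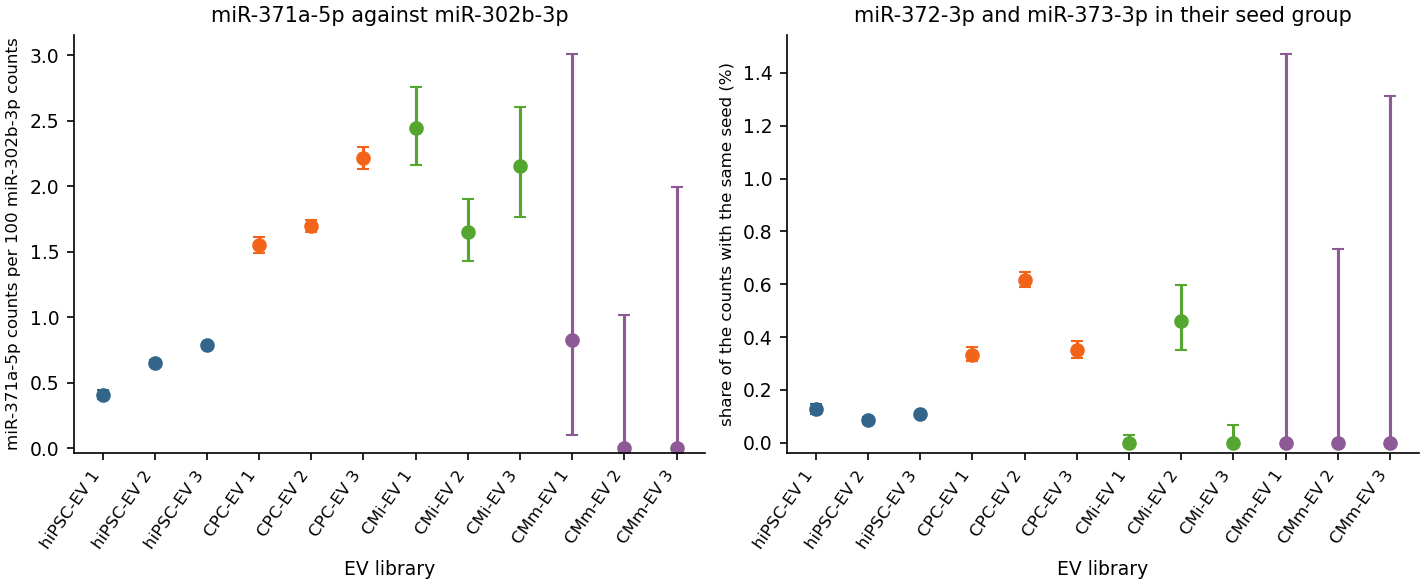
Left, counts of miR-371a-5p per 100 counts of miR-302b-3p; right, share of miR-372-3p and miR-373-3p in all counts with their seed, in percent; 1 point per EV library, with 95% exact binomial intervals for counting error. Both are higher in each CPC-EV library than in each hiPSC-EV library. miR-302b-3p, which makes up most of the counts with the seed, was itself called lower in CPC-EV. The CMm-EV intervals are wide because their libraries held at most 366 counts of miR-302b-3p (left) and 502 counts with the seed (right).

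The balance within the cluster was compared in the same way. miR-371a-5p held 99.6% ± 0.690 (SD, n = 3) of the counts of its hairpin in hiPSC-EV and 99.0% ± 0.995 in CPC-EV, a difference of -0.648 percentage points (two-sided exact permutation test, p = 0.70). Its 3p arm thus gave a small share of these counts in both groups. Capture of each arm was not measured, and counts of miR-371a-3p could be divided with miR-371b-5p. miR-372-3p held 88.3% ± 10.5 of the summed counts of miR-372-3p and miR-373-3p in hiPSC-EV and 82.4% ± 17.9 in CPC-EV (difference of -5.85 points, two-sided exact permutation test, p = 0.80). That difference rested on single libraries, since CPC-EV 3 held 61.7% (95% exact interval 57.1% to 66.2%) and the other two CPC-EV libraries 92.7% (90.3% to 94.6%) and 92.9% (91.7% to 94.0%). Without CPC-EV 3 it was 4.50 points, without hiPSC-EV 1 it was 0.0127 points, and with pooled counts it was 4.82 points, all in the other direction. In CMi-EV 2, miR-371a-5p held 77.6% of the counts of its hairpin (71.9% to 82.5%), below every other library with over 100 of those counts.

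The step after CPC-EV was large. miR-371a-5p fell from 1046, 1252 and 1026 CPM in CPC-EV to 121, 103 and 79.0 CPM in CMi-EV. The lowest CPC-EV library was thus several times above the highest CMi-EV library. Its log2 fold change was -3.44 (SE 0.25, adjusted p = 3.05e-04, edgeR), a 10.9-fold lower level. It was called lower with each alternative and with each library left out, with log2 fold changes from -3.92 to -3.27. It still had counts in 3 of 3 CMi-EV libraries.

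miR-372-3p had a log2 fold change of -5.43 (SE 1.54, adjusted p = 0.0639, edgeR) and miR-373-3p of -3.16 (SE 1.77, adjusted p = 0.290, edgeR). Neither was called, although both were below every CPC-EV library in each CMi-EV library, at 0, 17.9 and 0 CPM for miR-372-3p and 0, 13.1 and 0 CPM for miR-373-3p. The limits of 3 counts in the 2 libraries without a count are 1.32 and 2.17 CPM. So 1 of 3 tested members was called lower in CMi-EV, beside 14.0% of the 292 miRNA tested. All 3 lay below CPC-EV in every library, as 27.1% of the miRNA tested did, but each of the counts over members is a description only: miR-372-3p and miR-373-3p passed the filter through CPC-EV alone, so lower values in CMi-EV were built in for them. The calls changed with CMi-EV 2 and, for miR-372-3p, with the test or filter as well. CMi-EV 2 is the one CMi-EV library with counts of miR-372-3p and miR-373-3p, so that leaving it out sets 0 against the group through which they passed the filter. The 3 of 3 members then called lower, where 15.2% of the miRNA tested were, therefore show only how much the calls rest on that library, with adjusted p of 0.00609 for miR-372-3p and 0.0191 for miR-373-3p (edgeR). In that fit both have no CMi-EV count, so their fold changes are not given. With all libraries kept, miR-372-3p was called by DESeq2 (adjusted p = 0.00537), by the exact test of edgeR (adjusted p = 0.0303), with no filter (adjusted p = 2.30e-08), with the dispersion of all 12 libraries (adjusted p = 0.0369) and with the replicate number as a block (adjusted p = 0.0188), and miR-373-3p by none of these.

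CMi-EV 2 also held the CMi-EV counts of miR-371a-3p. Among the CMi-EV libraries it had the most cluster members, 4, where CMi-EV 1 and CMi-EV 3 had 1 each. Its miRNA counts, 1686607, lay between those of the other CMi-EV libraries, and its miR-371a-5p level did too. The 3p arms of miR-302a to miR-302d and miR-367 gave 12754 counts there and 12342 in CMi-EV 1, which had more miRNA counts (2163510). Their summed level was thus highest in CMi-EV 2 among the CMi-EV libraries, at 6696 CPM. miR-367-3p, named here after its values were seen, was counted in CMi-EV 2 alone among them (42 counts). Counts of miR-302b-3p and miR-302c-3p were also highest in CMi-EV 2. In contrast, miR-302d-3p was lowest there, with 262, 46 and 167 counts in CMi-EV 1, 2 and 3, and miR-302a-3p lay between, with 370, 195 and 152. LIN28A had 48 counts in CMi-EV 1, 10 in CMi-EV 2 and 2 in CMi-EV 3. What sets the extra arms in CMi-EV 2 was not tested.

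In this step, called members of the other lists were all lower. Of all 292 miRNA tested, 14.0% were called lower. Arms that passed the filter through CPC-EV alone could hardly be other than lower, so these counts are a description. Of the arms of miR-302a to miR-302d and miR-367, 9 were tested and 8 were called lower, with a median log2 fold change of -3.43, where miR-302b-3p had -3.66 (SE 0.28, adjusted p = 3.05e-04, edgeR) and miR-302a-5p -4.21 (SE 0.48, adjusted p = 0.00187, edgeR). The seed list had 7 tested and 4 called lower, with a median of -3.16. C19MC had 2 tested arms left, of which 1, miR-1323, was called lower, with a log2 fold change of -2.78 (SE 0.46, adjusted p = 0.00506, edgeR). The median of the 3 tested members was -3.44 and that of all 292 miRNA tested was -0.05. The differences between these lists were not tested.

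In CMm-EV the cluster was almost gone. miR-371a-5p had 2 counts in CMm-EV 1 (2.43 CPM) and none in CMm-EV 2 or CMm-EV 3, where 3 counts would be 0.796 and 1.18 CPM. It was the only member tested against CMi-EV. It was called lower, with a log2 fold change of -7.79 (SE 1.49, adjusted p = 0.0213, edgeR), and its groups did not overlap. Of the 247 miRNA tested, 10.1% were called lower and 23.9% had every CMm-EV library below every CMi-EV library. Nothing is read from the 1 of 1 member against these shares, since miR-371a-5p passed the filter through CMi-EV alone and could hardly be other than lower. The fold change rests on those 2 counts. From summed counts, 581 against 2, the level in CMi-EV was between 103 and 3087 times that in CMm-EV (95% interval for counting error). The call was lost with a term for the replicate number (adjusted p = 0.0811) and without CMi-EV 1, CMi-EV 2 or CMm-EV 2 (adjusted p = 0.0547, 0.0574 and 0.0541, edgeR). miR-302b-3p was still counted in every CMm-EV library, at 155 CPM on average, and fell by 5.21 on the log2 scale (SE 0.49, adjusted p = 0.00111, edgeR). With so few counts of miR-302b-3p, 366 in CMm-EV 2, 187 in CMm-EV 3 and 243 in CMm-EV 1, this ratio was resolved in 1 library only. The 95% interval of CMm-EV 2 ended at 1.01 counts of miR-371a-5p per 100, below each CPC-EV and CMi-EV library, while those of CMm-EV 3 (up to 1.99) and CMm-EV 1 (0.0991 to 3.01) reached into their range.

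miR-372-3p and miR-373-3p had no count in 3 of 3 CMm-EV libraries. Against 3 counts in each of those libraries, the mean level in CPC-EV was at least 138-fold higher for miR-372-3p and at least 20.8-fold higher for miR-373-3p. These are limits and no tests, and both would be lower without a single CPC-EV library. That is CPC-EV 2 for miR-372-3p (451 CPM, against 218 and 106 in the others). For miR-373-3p it is CPC-EV 3 (65.4 CPM, against 17.3 and 34.5).

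**Figure D5:**
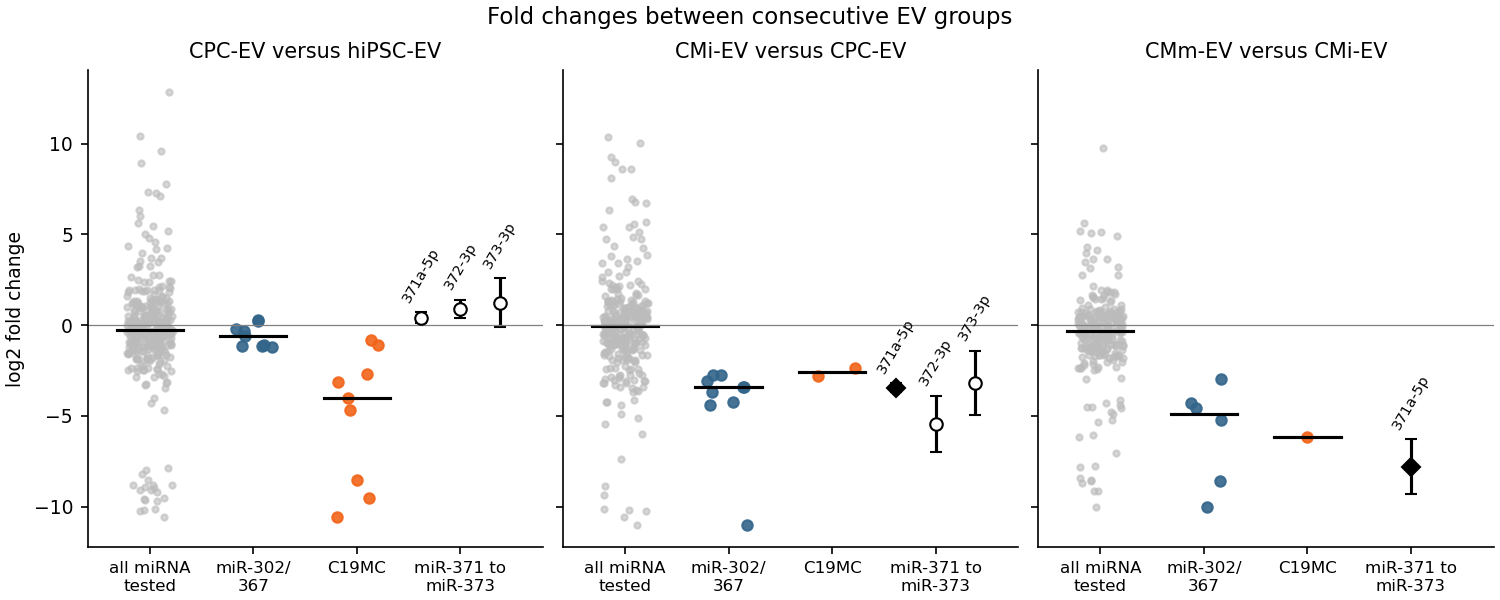
log2 fold changes (y axis) of all miRNA tested, the arms of miR-302a to miR-302d and miR-367, the C19MC arms and the tested members of the miR-371 to miR-373 cluster in the 3 comparisons of consecutive EV groups; bars in the first 3 columns are medians, error bars of the members are SE, and filled diamonds are members called. The C19MC column leaves out miR-517a-3p and miR-517b-3p, which were counted together. The members lie above 0 but are not called in CPC-EV versus hiPSC-EV, and lie between -5.43 and -3.16 in CMi-EV versus CPC-EV. Through CPC-EV alone, miR-373-3p passed the filter in both of these comparisons and miR-372-3p in the second, which favours these directions.

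Across all 4 EV groups, the F-test of edgeR called miR-371a-5p (adjusted p = 1.85e-05) and miR-372-3p (adjusted p = 0.00681) and did not call miR-373-3p (adjusted p = 0.0938), which was called without CMi-EV 2 (adjusted p = 0.0276) and with no filter (adjusted p = 0.0226). That is 2 of 3 tested members, beside 50.7% of the miRNA tested, a background so high that the count says little of the cluster. By mean level, miR-371a-5p ran in the order hiPSC-EV and CPC-EV (1118 and 1108 CPM), CMi-EV (101 CPM) and CMm-EV (0.810 CPM), of which only the first 2 did not differ beyond their spread. For miR-372-3p the order was CPC-EV (258 CPM), hiPSC-EV (177 CPM), CMi-EV (5.95 CPM) and CMm-EV (0 CPM), and for miR-373-3p it was CPC-EV (39.1 CPM), hiPSC-EV (23.2 CPM), CMi-EV (4.38 CPM) and CMm-EV (0 CPM). For both, CMi-EV and CMm-EV overlapped at 0.

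Of the 364 other expressed miRNA, the 5 whose levels followed the summed level of the cluster most closely were miR-302b-3p (Pearson's r = 0.983), miR-302a-5p (0.978), miR-302d-3p (0.976), miR-302c-5p (0.976) and miR-200b-3p (0.971). These r were taken on log2(CPM + 1) over the 12 libraries and are a description only, since the libraries fall into 4 groups and share their scaling. miR-200b-3p, of a family linked to the epithelial state, was at 2632 ± 260 CPM (SD, n = 3) in hiPSC-EV and 5111 ± 1682 in CPC-EV, against 144 ± 35.8 for CMi-EV and 5.44 ± 5.16 for CMm-EV. It was called higher in CPC-EV than in hiPSC-EV (log2 fold change 1.35, SE 0.24, adjusted p = 0.00604, edgeR). miR-302d-3p was at 937 ± 433 CPM in hiPSC-EV and 601 ± 313 in CPC-EV. Within the cluster, the r with miR-371a-5p was 0.857 for miR-372-3p and 0.728 for miR-373-3p over the same 12 libraries.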

How the data were processed

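Small RNA of 12 EV preparations was sequenced with Norgen small RNA kits on an Illumina NextSeq. The authors assigned reads with exceRpt on hg38 and deposited expected counts per feature. Values of the members were whole, and the others were rounded. The RPM deposited by the authors, reads scaled to a library total, served only for those totals. Submitters' notes name edgeR 3.24.0.

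Groups and replicate numbers came from the sample titles. Consecutive EV groups were compared with the quasi-likelihood test of edgeR 4.0.16 (limma 3.58.1, R 4.3.3), two-sided, with TMM scaling within the 6 libraries, keeping miRNA that reached 5 CPM in all 3 libraries of a group, and the 4 groups with its F-test. P-values were Benjamini-Hochberg adjusted over all miRNA tested. miRNA were called at an adjusted p of 0.05 and a log2 fold change of 1 in size (no fold for the F-test). Single shares and ratios were compared with exact permutation tests. Fits were tested on simulated data. Alternatives included DESeq2 1.42.0. Other steps used scipy 1.17.1 and numpy 2.4.6 in Python 3.11.15, with tables in pandas 2.3.3 and plots in matplotlib 3.10.9.

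Members and lists were chosen with earlier results of these data known. Every arm of the 4 hairpins is named, with the 2 most abundant miRNA of each list and the 5 most like the cluster. A RefSeq sequence was matched by name for 966 of the 1133 miRNA, so seed counts cover those.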

Additional observations from a re-analysis of the deposited data

How the results depend on the processing

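The number of members called between CPC-EV and hiPSC-EV stayed at 0 with every alternative and every library left out, and the log2 fold changes of the 3 tested members stayed above 0 there (0.16 to 2.24). For miR-373-3p this says little, since with all libraries kept it passed the filter through CPC-EV alone. Without hiPSC-EV 3, miR-371a-5p had an adjusted p of 0.0486 (edgeR), and only its log2 fold change of 0.72 kept it from a call. The rare miR-371b-5p was at -0.18 without hiPSC-EV 1 and at 0.28 with no filter. Scaling moved the median of all miRNA tested by up to 0.17 in that comparison, and dropping the filter moved it by -1.25. Without TMM it fell by 0.47 in CMi-EV versus CPC-EV and by 0.62 in CMm-EV versus CMi-EV, and miR-371a-5p lay -3.40 and -7.33 from the median there, against -3.40 and -7.49 with TMM. Between CMi-EV and CPC-EV, 2 members were called in place of 1 with no filter, DESeq2, the dispersion of all 12 libraries, the exact test of edgeR and the replicate block, and between 1 and 3 with a library left out. Between CMm-EV and CMi-EV, 0 were called with the replicate block and 0 or 1 with a library left out. The cause was not tested. The replicate block changed no other call. Same-numbered libraries did not deviate together (correlations from -0.12 to 0.10), which gives no sign of pairing by number. With 3 libraries a group, this cannot exclude it. Between 2 and 3 members were called by the F-test. The difference in the share of miR-372-3p was 4.82 points in the other direction with pooled counts, and ran from -11.1 to 4.50 points with a library left out. The share of miR-371a-5p stayed between -1.17 and -0.18 points. With the library total as denominator, the cluster held 0.0705% in hiPSC-EV, 0.0926% in CPC-EV and 0.00776% in CMi-EV. Per 100 counts of miR-302a-5p in place of miR-302b-3p, the difference in miR-371a-5p between CPC-EV and hiPSC-EV was 0.334, and against the summed 3p arms, which are mostly miR-302b-3p, it was 1.15.

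In hiPSC-EV 1, the shallowest hiPSC-EV library, 3 counts are 3.48 CPM, and lower levels could not be seen there. With 3 libraries a group, calls of miR-372-3p and miR-373-3p changed with 1 library, and also with the test or filter.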
